A study of Drosophila melanogaster with 13 samples.

Results

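TREX and the mRNA export receptor carry finished transcripts from the site of transcription to the nuclear pore. The set described here holds 9 genes, chosen by symbol: the THO subunits tho2, Hpr1, thoc5, thoc6 and thoc7, the helicase gene Hel25E, the adaptor gene Ref1, the export receptor gene sbr and its cofactor gene Nxt1. All 9 were found under their current symbols in both deposited tables, which together list 8401 genes. RNA came from wildtype ovarian somatic cells (OSCs), a cultured Drosophila line of ovarian follicle cell origin. Cells received siRNA to knock down Armitage (siARMI, targeting armi) or Yb (siYB, targeting fs(1)Yb), or a control siRNA against luciferase, which fly cells do not encode (siLUC), with 3 libraries in each group. In all of these groups the siRNA was given at 0 h and again at 48 h, and cells were collected at 96 h. No label states that replicate libraries were grown as separate cultures, so the spread behind each p-value may be only technical.

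THO is a complex of several subunits that is loaded onto RNA during transcription. With THO, the DEAD-box ATPase encoded by Hel25E (UAP56) and the adaptor encoded by Ref1 (the fly ALY protein) form TREX, which hands the RNA to the receptor encoded by sbr (Nxf1), a heterodimer with Nxt1 (p15) that passes the pore. The same machinery has a place in the piRNA pathway. In follicle cells the long precursors of piRNAs leave the nucleus through the Nxf1 and Nxt1 route and are processed in the cytoplasm, where Yb and Armitage act. Nxt1 is also a partner of Nxf2 in the Panoramix complex, which silences transposons in the nucleus, and of Nxf3, which exports piRNA precursors in germ cells.

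The deposited tables give, for each row, the normalised count averaged over the compared libraries, a log2 fold change of knockdown over control shrunk toward 0 by the authors, its error and a p-value, and hold no value per library. A gene is called here when the authors' p-value, adjusted over all rows of the table by Benjamini-Hochberg, is under 0.05. The targeted genes were lower in their own comparisons, armi with a log2 fold change of −1.92 ± 0.07 and fs(1)Yb with −2.17 ± 0.51 (authors' deposited tables; adjusted p = 3.98e-174 and 6.04e-04). In the authors' deposited siARMI table the follicle cell markers tj, zfh1, Fas3, fs(1)Yb and piwi had mean counts between 1784 and 7939. Of the germ cell markers vas, bam, osk and aub had mean counts between 2.29 and 6.34 and AGO3 78.0, where the lower quartile of all genes was 55.6 in the authors' deposited siARMI table. These means pool siARMI and siLUC libraries, so for markers that changed after Armitage knockdown they are not levels of control cells. The largest such log2 fold changes among the markers were 2.13 for Fas3 and 1.82 for AGO3, both higher. The gene nanos, also among the germ cell markers, could not be matched to a row.

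Ranked by transcript level, the 9 genes stood in an order by role, though the gaps between roles depend on the transcript length used. Levels between genes are compared per length, as the mean normalised count divided by the median length of the annotated transcripts in kb (BDGP6.54). Ref1 was highest, at 1481 counts per kb in the siARMI table, and Hel25E followed at 1285 counts per kb. Of 8089 genes with a length, 3.10% lay above Ref1 and 3.55% above Hel25E. The receptor pair came next, Nxt1 at 515 counts per kb and sbr at 445 counts per kb.

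The THO subunits were lower. Hpr1 had 218 counts per kb, tho2 211, thoc5 198, thoc7 176 and thoc6 121 in the siARMI table. They stood above 51.6% (thoc6) to 69.9% (Hpr1) of genes. The order was the same in the siYB table, from Ref1 at 379.5 counts per kb to thoc6 at 33.3 counts per kb, on that table's own scale. The spread of a level over libraries is not in the tables, so it was not tested whether neighbours in this order differ. With the longest annotated transcript in place of the median, sbr had 291 counts per kb, thoc6 64.9 and Hel25E 967 in the siARMI table. The order of the 9 genes was the same. By that length sbr lay nearer to Hpr1, at 218, than Hpr1 lay to thoc6.

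**Figure D1:**
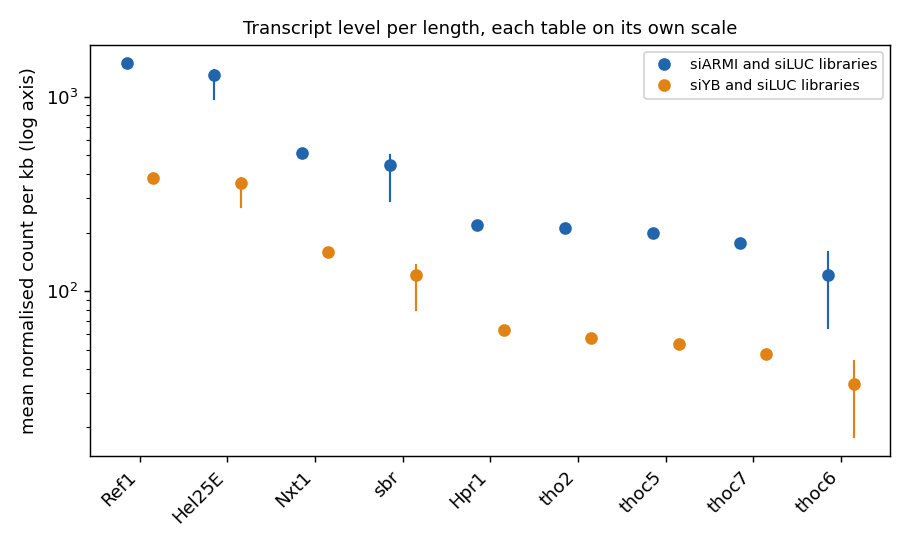
Mean normalised count per kb of transcript (log axis) of the 9 export genes, for the siARMI comparison (blue, siARMI and siLUC libraries) and the siYB comparison (orange, siYB and siLUC libraries). Points use the median annotated transcript length and lines span the shortest and longest transcript. Ref1 and Hel25E lie highest and the 5 THO subunits lowest in both.

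After Armitage knockdown 2 of the 9 genes fell, 0 rose and 7 did not pass the test. At an unadjusted p under 0.05 there were 3, all lower, beside 3075 of the 8289 genes tested. Of 8289 genes tested 28.3% were called in the authors' deposited siARMI table, 13.4% lower and 14.9% higher. The median log2 fold change was −0.17 over the 9 genes and −0.01 over all genes tested, in the authors' deposited siARMI table. These are counts over 9 genes, and the share called depends on depth. Among genes with a mean count within 1.2 times that of the gene in question (here genes of like count), 48.7% were called around Hel25E and 24.6% around thoc7 in the authors' deposited siARMI table.

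The receptor gene sbr fell. Its log2 fold change was −0.30 ± 0.09, with a 95% interval from −0.48 to −0.12 (authors' deposited table; adjusted p = 0.00451). On a linear scale sbr fell by 18.8%. With 3 libraries on each side, the deposited mean count of 956 and shrunken fold change imply about 857 normalised counts in siARMI cells and 1055 in siLUC cells. Of 588 genes of like count, 73.8% had a smaller absolute log2 fold change in the authors' deposited table. The gene sbr (FBgn0003321) spans chromosome X, 10832752 to 10847092, minus strand (BDGP6.54).

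The helicase gene Hel25E also fell, at −0.25 ± 0.07 with a 95% interval from −0.39 to −0.11 (authors' deposited table; adjusted p = 0.00311). On a linear scale Hel25E fell by 15.9%. The deposited mean count of 2196 and fold change imply about 2006 normalised counts in siARMI cells and 2386 in siLUC cells. Of 228 genes of like count, 64.0% had a smaller absolute log2 fold change in the authors' deposited table. Hel25E (FBgn0014189) lies on chromosome 2L, 5539326 to 5542314, minus strand (BDGP6.54).

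The cofactor gene Nxt1 lay just outside the threshold. Its log2 fold change was −0.30 ± 0.13, close to that of sbr, with a 95% interval from −0.55 to −0.05 (authors' deposited table; unadjusted p = 0.0146, adjusted p = 0.0508). The implied levels were 247 normalised counts in siARMI cells and 303 in siLUC cells. With p-values adjusted over rows at or above the lower quartile of mean count Nxt1 passed, at an adjusted p of 0.0435 (Benjamini-Hochberg on the deposited p-values). Over all alternatives, which include normal p-values from the deposited fold change and error, the adjusted p ranged from 0.0435 to 0.0856. The adjacent gene CG5543 shares 78 bp of exon with Nxt1 on the other strand and stood at −0.21 ± 0.15 in the authors' deposited table (adjusted p = 0.279). Libraries were made with a directional kit, but whether counting used the strand is not given in the sources used here, so reads of such pairs cannot be told apart. Nxt1 (FBgn0028411) lies on chromosome 2R, 23811321 to 23811974, minus strand (BDGP6.54).

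The adaptor gene Ref1 did not pass the test, at 0.05 ± 0.07 (authors' deposited table; adjusted p = 0.642). Its 95% interval ran from −0.09 to 0.19, or from −5.82% to 13.9% on a linear scale. With a mean count of 1967 it was measured about as deeply as Hel25E. Among 264 genes of like count the smallest called absolute log2 fold change was 0.17 in the authors' deposited table. Ref1 (FBgn0010774; chromosome 3R, 7077904 to 7080387, minus strand, BDGP6.54) shares 78 bp of exon with CG1943 on the other strand, which rose by 0.25 ± 0.10 (authors' deposited table; adjusted p = 0.0293).

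None of the 5 THO subunits among the 9 genes passed the test after Armitage knockdown in the authors' deposited table, and by unadjusted p, too, 0 of the 5 were under 0.05. Over all genes tested 28.3% were called and 3075 of 8289 were under 0.05 by unadjusted p. The THO subunit gene tex (THOC3), which is not among the 9, was lower at −0.52 ± 0.17 (authors' deposited table; adjusted p = 0.00513), with a mean count of 142. The largest subunit gene, tho2, stood at −0.07 ± 0.08 (authors' deposited table; adjusted p = 0.557), with a 95% interval from −0.23 to 0.09. It had a mean count of 1139, and 51.1% of 495 genes of like count were called in the authors' deposited table. The gene Hpr1, encoding the fly THOC1 protein, stood at −0.21 ± 0.11 (authors' deposited table; unadjusted p = 0.0507, adjusted p = 0.136). Its interval, from −0.44 to 0.01, reaches changes as large as those of sbr and Hel25E.

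For the other THO subunits the log2 fold changes were 0.01 ± 0.10 for thoc5, −0.17 ± 0.16 for thoc6 and 0.18 ± 0.15 for thoc7 in the authors' deposited table, with adjusted p of 0.972, 0.422 and 0.359. The estimate of thoc7 was the highest of the 9, with a 95% interval from −0.11 to 0.48. Their mean counts were 403 for thoc5, 186 for thoc6 and 164 for thoc7 in the authors' deposited table. At such counts the smallest called absolute log2 fold change was 0.25 around thoc5, 0.33 around thoc6 and 0.35 around thoc7 in the authors' deposited table. No gene of like count to thoc6 or thoc7 was called with a change as small as that of sbr. Whether sbr or Hel25E differs from the THO subunits in response was not tested.

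**Figure D2:**
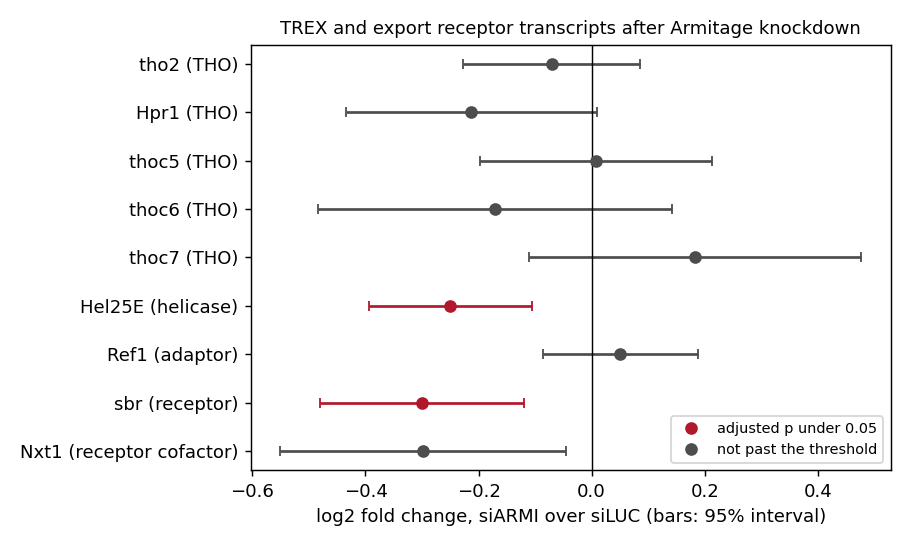
Log2 fold change of siARMI over siLUC in the authors' deposited table for the 9 export genes, grouped by role, with 95% intervals from the deposited error. The intervals of sbr, Hel25E and Nxt1 lie below 0, those of the other 6 include 0, and sbr and Hel25E (red) pass an adjusted p of 0.05.

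**Figure D3:**
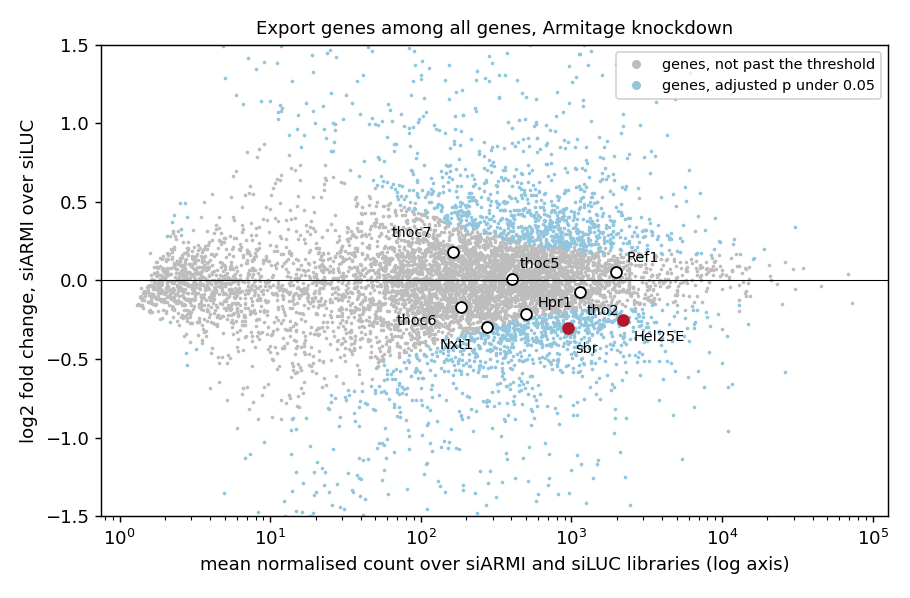
Log2 fold change of siARMI over siLUC against mean normalised count (log axis) for all genes tested, with the 9 export genes as large circles (filled where called). Genes at low counts need larger changes to be called, and 306 genes lie beyond the plotted range of fold changes. The 9 genes lie between −0.30 and 0.18.

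Gene positions of the THO subunits (BDGP6.54) were as follows. The gene tho2 (FBgn0031390) lies on chromosome 2L, 2137350 to 2145187, minus strand, and Hpr1 (FBgn0037382) on 3R, 5818794 to 5821440, minus strand. The gene thoc5 (FBgn0034939) lies on 2R, 23954091 to 23956406, plus strand, thoc6 (FBgn0036263) on 3L, 12190696 to 12193688, minus strand, and thoc7 (FBgn0035110) on 3L, 211636 to 212687, minus strand. All 9 export genes are annotated as protein coding.

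After Yb knockdown 0 of the 9 genes passed the test in the authors' deposited table, and 0 were under 0.05 by unadjusted p. Of 8295 genes tested there 0.0723% were called, 0.0241% lower and 0.0482% higher, and 46 were under 0.05 by unadjusted p. The unadjusted p of the export genes ranged from 0.401 for sbr to 0.984 for Hpr1 in the authors' deposited table. Hel25E had 0.660, thoc7 0.658, Nxt1 0.795, Ref1 0.800, thoc6 0.833, thoc5 0.900 and tho2 0.904 in the same deposited table of the authors. The deposited fold changes of all 9 genes were shrunk to about 0, as for 8458 of the 8480 rows, and carry neither size nor sign. The authors' siYB p-values leaned toward 1, with a lower quartile of 0.557 over genes, so that 14.5% of genes had a smaller p than sbr. Mean normalised counts summed to 1.64e+06 over the rows of the siYB comparison and to 6.21e+06 over those of the siARMI comparison. The lack of a call in this table therefore says little about changes of the size seen after Armitage knockdown. Both comparisons use the siLUC libraries as control, per the series design, and the difference between the knockdowns could not be tested for these genes.

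Other genes of nuclear RNA export were read from 10 lists, of which 42 of 45 symbols had a row in both tables. After Armitage knockdown 15 of the 42 fell, 1 rose and 26 did not pass the test in the authors' deposited table. Read against 13.4% of all genes lower and 14.9% higher, that is 35.7% lower and 2.38% higher. The lists were chosen with earlier results of these data known, so these shares are descriptive only. The share called depends on depth here too, and the mean counts of the 42 ran from 2.19 to 6895. Among genes of like count to each of the 9 export genes, 24.6% (thoc7) to 51.1% (tho2) were called in either direction. No such share was computed for the 42 genes, so whether they differ from genes of like count was not tested. The median log2 fold change was −0.14 over the 42 genes, beside −0.01 over all genes tested, in the authors' deposited siARMI table. Of the 15 falls 5 were in genes that act at the pore, where the export receptor delivers its cargo.

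Of 7 genes of the pore and of mRNP release 5 fell, 0 rose and 2 did not pass, with a median of −0.29 in the authors' deposited table. Over all genes tested 13.4% were lower. The share called depends on depth, and the mean counts of the 7 ran from 177 to 6895. Whether the 7 differ from genes of like count was not tested. Nup98-96, which encodes the nucleoporins Nup98 and Nup96 from a single transcript, stood at −0.57 ± 0.07 (authors' deposited table; adjusted p = 1.96e-17). Rae1, whose product binds Nup98 and mRNA, was lower at −0.34 ± 0.11, and Nup358 of the cytoplasmic filaments at −0.33 ± 0.07 in the authors' deposited table. Gle1, which activates the release helicase in yeast, was lower at −0.29 ± 0.12 and the nucleoporin gene Nup214 at −0.23 ± 0.08 in the authors' deposited table. The release helicase gene Dbp80 stood at 0.13 ± 0.16 in the authors' deposited table and did not pass (adjusted p = 0.557).

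A further list was named for the CRM1 route, the export pathway for proteins and some RNAs that does not use Nxf1. It had 3 of 4 genes lower, 0 higher and a median of −0.30 in the authors' deposited table. Over all genes tested 13.4% were lower. Mean counts of the 4 ran from 753 to 3373, and whether they differ from genes of like count was not tested. The 3 lower genes are Ran and its regulators. The receptor gene was not among them, so the count is not one of the CRM1 route itself. These were the small GTPase gene Ran at −0.24 ± 0.07, its exchange factor gene Rcc1 at −0.46 ± 0.08 and its activating protein gene RanGAP at −0.36 ± 0.09 in the authors' deposited table. The receptor gene of that route, emb (CRM1), stood at −0.09 ± 0.07 and did not pass (authors' deposited table; adjusted p = 0.317).

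In the list drawn up for further TREX genes 2 had a row. Of these tex fell, as given with the THO subunits, and CG17187, whose place in TREX these data do not show, did not pass in the authors' deposited table. In TREX-2, which links transcription to the pore basket, 1 of 4 genes fell: the scaffold gene xmas stood at −0.29 ± 0.09 in the authors' deposited table. Among NXF family and Panoramix complex genes 1 of 4 fell, Nxf3 at −1.46 ± 0.21 (authors' deposited table; adjusted p = 9.14e-12), the largest absolute change of the 42. Of Nxt1's other partner, the row nxf2 stood at −0.10 ± 0.09 and did not pass (authors' deposited table; adjusted p = 0.427).

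In the remaining lists single genes were called. Of the exon junction complex, which marks spliced mRNA, the helicase gene eIF4A3 (row CG7483) was lower at −0.29 ± 0.09 and 3 of 4 genes did not pass in the authors' deposited table. Of the nuclear cap-binding list Cbp20 was lower at −0.40 ± 0.17 and 2 of 3 did not pass, and of the nuclear poly(A) factors the poly(A) polymerase gene hrg was lower at −0.28 ± 0.07 and 3 of 4 did not pass, in the authors' deposited table. Among the SR proteins, splicing factors some of which serve as export adaptors, Rsf1 rose by 0.43 ± 0.10 (authors' deposited table; adjusted p = 1.07e-04) and 5 of 6 did not pass. Of the list for precursor export in germ cells del (deadlock) was lower at −0.53 ± 0.14, with a mean count of 345, in the authors' deposited table. The other genes, 3 of 4, did not pass, with mean counts of 5.16 for rhi, 2.19 for moon and 23.9 for cuff.

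**Figure D4:**
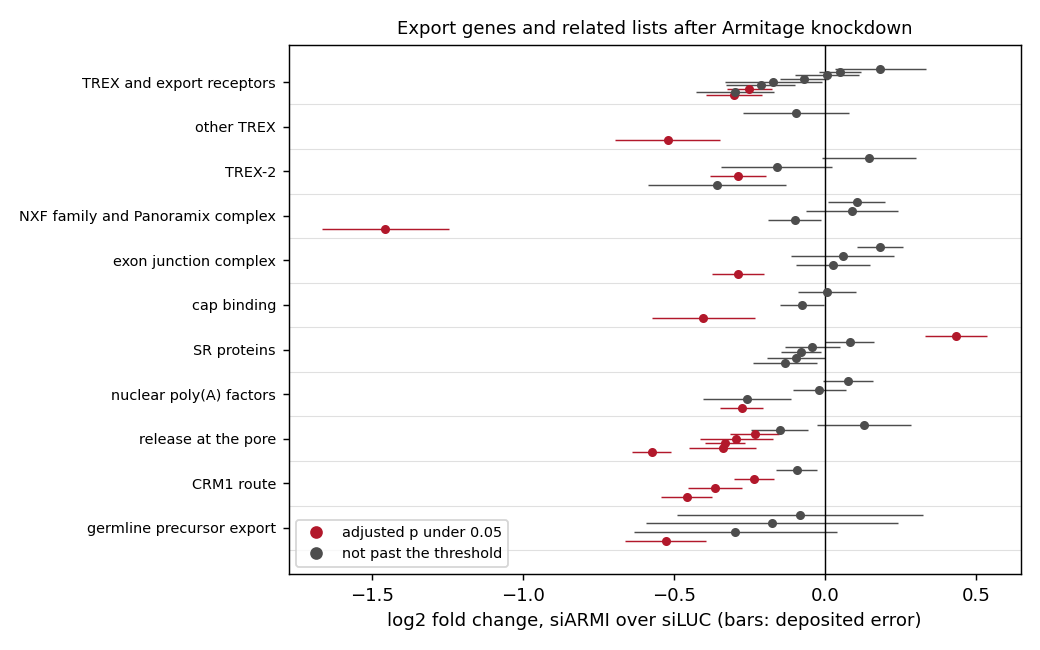
Log2 fold change of siARMI over siLUC with the deposited error for the 9 export genes (top) and the 42 genes of the related lists, red where the adjusted p is under 0.05. The genes of the pore and of the list named for the CRM1 route lie mostly left of 0, with 5 of 7 and 3 of 4 called lower. Over all genes tested 13.4% were called lower, and a comparison with genes of like count was not made. In the latter list Ran, Rcc1 and RanGAP were called and the receptor gene emb was not. The SR protein Rsf1 is the single gene called higher.

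After Yb knockdown 0 of the 42 related genes passed the test in the authors' deposited table, and 0 were under 0.05 by unadjusted p. Over all genes tested 46 of 8295 were under 0.05 by unadjusted p and 6 were called. In 9 of the 10 lists the smallest p was 0.252 for moon, 0.403 for ctp, 0.424 for Sem1 and 0.453 for Nup98-96 in the authors' deposited table. It was 0.553 for tsu, 0.654 for Cbp80, 0.777 for emb, 0.779 for hrg and 0.899 for CG17187 in the authors' deposited table.

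Cell type markers moved beside these changes after Armitage knockdown. Of the follicle cell markers 4 of 5 were lower and 1 was higher in the authors' deposited table: tj stood at −0.30 ± 0.07, zfh1 at −0.23 ± 0.08, fs(1)Yb at −0.26 ± 0.07, piwi at −0.52 ± 0.08 and Fas3 at 2.13 ± 0.18. Of 5 germ cell markers with a row 0 were lower and 2 higher, AGO3 at 1.82 ± 0.25 and osk, near the floor of detection, at 1.29 ± 1.43, in the authors' deposited table. Over all genes tested 13.4% were lower and 14.9% higher in the authors' deposited siARMI table. The follicle cell markers had mean counts from 1784 to 7939. Around Hel25E, at a mean count of 2196, 48.7% of genes of like count were called in either direction. The part of the markers in the changes of the export genes was not tested. In bulk RNA a smaller number of cells of a type and less RNA per cell cannot be told apart.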

How the data were processed

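Libraries of poly(A)-selected RNA were made with a directional kit, per the labels' protocols, while the titles of the siRNA libraries carry a tag, RZ, that nothing in the labels explains. Tools listed without roles, per the submitters' processing notes, are the aligners Bowtie and STAR, Salmon 1.7.0, HOMER, DESeq2 and edgeR. For the counting, the genome build, annotation and strand setting were not given in the sources used here. The authors deposited 2 comparison tables. Per the file headers their columns are a mean normalised count (a signal over the libraries compared, on each table's own scale), a log2 fold change with its error, and the p-value before and after adjustment. The deposited log2 fold changes had been shrunk by the authors, and the direction was read as knockdown over control because the targeted genes are negative. Depth per library is unknown, so no interval from counts is given, and no count test could be run. Another 4 libraries, from 4-thiouridine labelling and its input, are not analysed here.

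Deposited adjusted p-values were recomputed as Benjamini-Hochberg values (largest difference 3.64e-14). Intervals are the log2 fold change ± 1.96 deposited errors. Levels implied for each group assume a mean over equal group sizes. These levels and the linear falls use the shrunken fold change, so they may understate the difference between groups. Gene models are those of Ensembl release 115, found for 8199 of 8401 gene rows. Synonyms were matched through the RefSeq gene table, and Ref2, nxf4 and boot were not matched. Adjustment was tested on simulated data. Python 3.11.15, pandas 2.3.3 and scipy 1.17.1 were used. The named genes are the 9 export genes, every related gene past the threshold and otherwise the gene with the smallest p of a list. Other genes shown beside them (btz, Dbp80, emb, nxf2, the overlapping genes) were chosen after their values were seen. Members and lists were chosen with earlier results of these data known. Alternatives were other thresholds, another set of rows for the adjustment, a filter on low counts, a normal p from the fold change and error, and centring on the median gene. The smallest p of the SR protein list after Yb knockdown is not reported here.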

Additional observations from a re-analysis of the deposited data

How the results depend on the processing

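After Armitage knockdown sbr and Hel25E were called under all 6 alternatives (adjusted p from 0.00376 to 0.00836 for sbr and from 0.00259 to 0.00560 for Hel25E), and the count of export genes called was 2 or 3. All 6 reuse the deposited p-values, or the deposited fold changes and errors, so they are no independent check of these calls. The third was Nxt1, which passed with a threshold of 0.1 and with the filter on low counts. Of the 42 related genes, or the 39 that the filter left, 13 to 17 were called, 12 to 15 of them lower. The number higher was 2 rather than 1 with a threshold of 0.1 and with the filter on low counts, the added gene being btz of the exon junction complex at 0.18 ± 0.08 in the authors' deposited table (adjusted p = 0.0458 with the filter, range over alternatives 0.0458 to 0.0668). Both changes follow from the construction of those alternatives, a looser threshold or fewer rows in the adjustment. Centring on the median gene moved log2 fold changes by 0.01. After Yb knockdown 0 of the 9 export genes and 0 of the related genes were called under all 4 alternatives. This was fixed in advance, since the smallest unadjusted p in the authors' deposited table was 0.401 and 0.252, above every threshold used. No paired analysis was possible because the tables hold no value per library, and for the same reason no library could be left out. Depth per library is unknown. Errors of the export genes after Armitage knockdown were 0.07 for Ref1 and Hel25E and 0.16 for thoc6 in the authors' deposited table.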

Other observations

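Several export genes overlap other genes whose transcripts changed after Armitage knockdown. CG15209 lies within an intron of sbr on the other strand, shares no exon with it and rose by 3.75 ± 0.31 (authors' deposited table; adjusted p = 4.78e-32), while CG32669, nested in sbr on the same strand, stood at −0.04 ± 0.20 and did not pass in the authors' deposited table. CG42675, which shares 27 bp of exon with Hpr1 on the other strand, rose by 1.84 ± 0.33 (authors' deposited table; adjusted p = 4.09e-08). CG16787, which shares 72 bp with thoc5 on the other strand, was lower at −0.43 ± 0.16 in the authors' deposited table (adjusted p = 0.0183). The transcript models of thoc6 share 1697 bp of exon with Est-P on the other strand, and Est-P has no row in the authors' deposited tables.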
